A study of Mus musculus with 24 samples.

Results

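Repeat loci of mouse chromosomes 6 and 8 were described as one set of regions in nascent RNA of E14TG2a cells, a mouse embryonic stem cell line. The set holds every repeat line of the deposited table whose chromosome is 6 or 8, which is 501778 of 4929385 loci, with 265467 on chromosome 6 and 236311 on chromosome 8. Both chromosomes were selected on the average difference between the Alkbh5 knockout and WT, in which their repeats were raised as a whole, so that difference is given below as a description, with no test. What was asked of the set is whether its change with labelling time, and its level in the other Alkbh5 mutant, differed from that of repeats on the other 17 autosomes. In all, 228059 of the members (45.45%) had reads, and 35463 (7.07%) passed the filter for single loci, against 6.53% of the loci on the other autosomes. That filter is a mean level of at least 10 and reads in at least 6 of the 24 libraries, where a level is a locus's reads scaled to the spike-in reads common to all libraries. The mean includes the knockout libraries, so members could pass the filter through their raised knockout levels.

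The cells took up 1 mM EU, a modified uridine that enters RNA as it is made, over 10, 20, 40 or 60 min. RNA carrying it was pulled out by click chemistry and sequenced. The 3 genotypes were WT, Alkbh5 KO (KO here) and Alkbh5 del-cIDR (dcIDR here), which lacks the region the labels call cIDR of the same gene. Each genotype had 2 libraries at each of the 4 times, 24 in all, from cells grown with serum, LIF and inhibitors of MEK and GSK3. The labels give 1 cell line and do not say how many clones stand for a mutant or which dish gave which library, so the p-values below measure the spread between these libraries, which may be technical. EU-labelled Drosophila RNA was added to every sample as a spike-in. Libraries held 3654850 to 22123265 repeat reads and 6037 to 23382 spike-in reads, with the fewest repeat reads in dcIDR at 10 min. All 10 listed stem cell markers had reads in every library, at 3396 to 4112 per 1000000 gene reads in sum, while the 6 fibroblast markers summed to at most 7.09. Alkbh5 itself was 0.56 ± 0.050 (SE) lower in KO than in WT on the log2 scale and 0.44 lower in dcIDR. How reads were counted over a gene is not given, and RNA from outside an edited part may be included, so this value does not check the edit.

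Interspersed repeats make up a large part of the mouse genome. LINEs such as L1 code for the proteins that copy them, SINEs such as B2 and B4 are short and depend on LINE proteins, and LTR elements such as ERVK derive from retroviruses. Most copies lie within introns or between genes, and a copy in an intron is transcribed with its host gene, so reads over repeats in captured nascent RNA report on transcription of the surrounding region as well as of the elements. ALKBH5 removes the N6-methyl mark from adenosines in RNA, and such marks on nuclear repeat RNA have been studied in embryonic stem cells. Gain of whole chromosomes, chromosome 8 among the most common, is a known event in cultured mouse embryonic stem cells. These libraries hold RNA only, and DNA copy number was not analysed here.

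The chromosomes took a larger share of repeat reads in KO than in WT and a smaller one in dcIDR, at every labelling time. In WT, chromosome 6 held 6.16 and 6.17% of the autosomal repeat reads in the 10 min libraries, 6.14 and 6.14% after 20 min, 6.14 and 6.17% after 40 min and 6.16 and 6.16% after 60 min. In KO the pairs of libraries, from the shortest labelling to the longest, held 7.75 and 7.78%, 7.78 and 7.84%, 7.83 and 7.89%, then 7.84 and 7.91%. In dcIDR the pairs held 5.82 and 5.86%, 5.86 and 5.88%, 5.87 and 5.91%, then 5.84 and 5.91%. All 8 KO libraries lay above all 8 WT libraries, and all 8 dcIDR libraries lay below them. In RNA of whole cultures, more cells with a signal and more RNA per cell cannot be told apart.

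Chromosome 8 showed the same order of genotypes. In the same order of times, the WT pairs held 5.37 and 5.41%, 5.46 and 5.54%, 5.41 and 5.45%, then 5.36 and 5.36%. KO libraries held 6.56 and 6.60%, 6.69 and 6.76%, 6.64 and 6.73%, then 6.61 and 6.74%. The dcIDR libraries held 4.88 and 4.98%, 4.97 and 4.99%, 4.95 and 4.97%, then 4.86 and 4.95%. No library of one genotype fell within the range of another, and the step between genotypes exceeded any difference between times within a genotype.

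**Figure D1:**
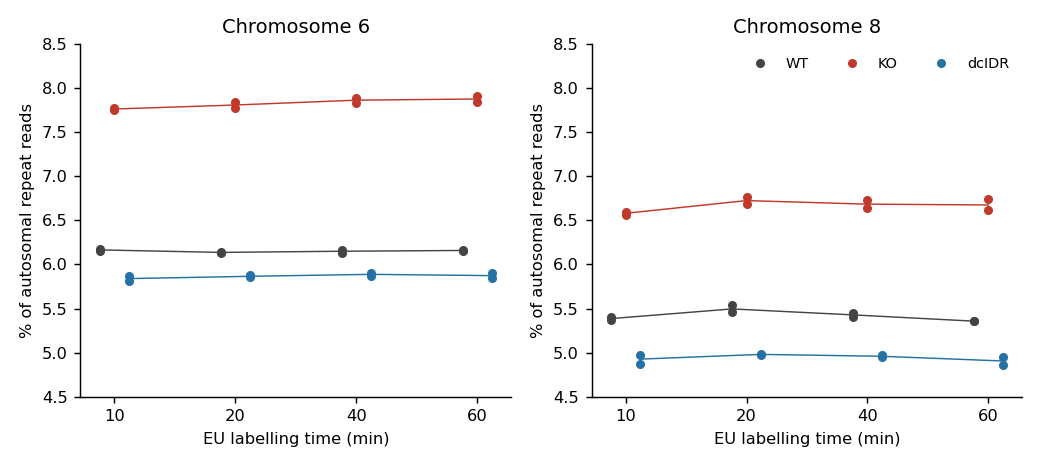
Share of all autosomal repeat reads (percent, y axis) that came from chromosome 6 (left) and chromosome 8 (right) at each EU labelling time (min, x axis). Points are single libraries, 2 per group, and lines join the group means. The KO libraries sit between 7.75 and 7.91% on chromosome 6 and between 6.56 and 6.76% on chromosome 8, above WT at every time, and the dcIDR libraries sit below WT.

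To compare chromosomes, repeat reads were summed in windows of 1 Mb, each window was set against its own mean over the libraries on the log2 scale, and the median window of a chromosome was read against the median window of the other autosomes in the same library. On this scale the average KO minus WT difference was 0.36 ± 0.0046 (SE) for chromosome 6, a 1.28-fold higher signal, and 0.30 ± 0.0079 for chromosome 8, a 1.23-fold higher signal. These are the values that chose the set. The nearest chromosome outside it was 11, at 0.076, and the lowest was 14, at -0.032. Over the 4 labelling times, shortest first, chromosome 6 was higher by 0.34, 0.36, 0.36 and 0.36, and chromosome 8 by 0.29, 0.29, 0.31 and 0.31.

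**Figure D2:**
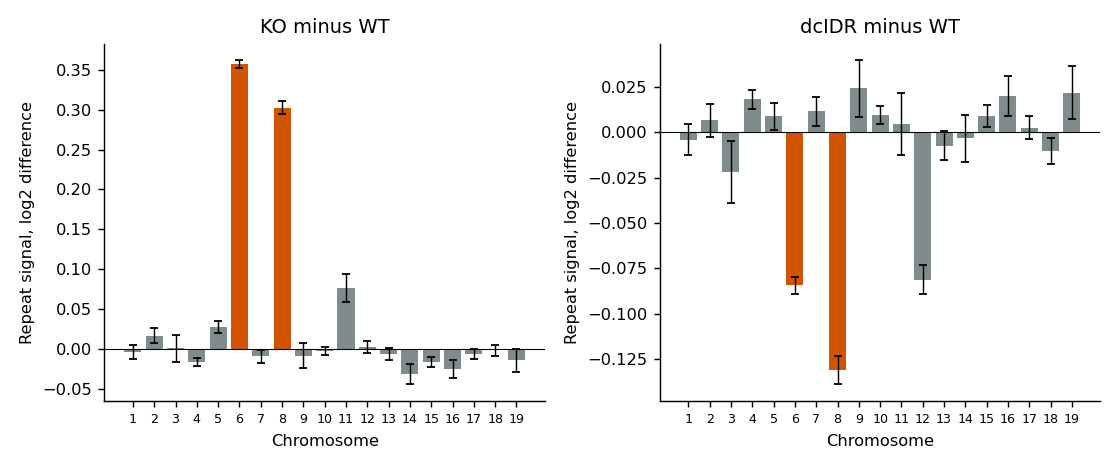
Difference in repeat signal (log2, y axis) between KO and WT (left) and between dcIDR and WT (right) for each of the 19 autosomes (x axis), averaged over the 4 labelling times. Bars are medians over 1 Mb windows relative to the other autosomes, error bars are SEs from the spread within groups, and orange marks chromosomes 6 and 8. Chromosomes 6 and 8 stand at 0.36 and 0.30 in KO, and at -0.084 and -0.13 in dcIDR, where chromosome 12 reached -0.081.

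The dcIDR libraries were not used to choose the set, and in them repeats of both chromosomes lay below WT relative to the other autosomes. This comparison shares its WT libraries with the one that chose the set. As planned, the value of a library was the median log2 window of chromosomes 6 and 8 minus that of the other autosomes, without setting windows against their own mean. By this measure dcIDR was lower than WT by 0.13 ± 0.017 (SE, 8 libraries each), with an adjusted p of 0.0015 by a two-sided exact permutation test of genotype within labelling time. That p is the smallest the 1296 arrangements can give. Relative to each window's own mean, a measure added after the values were seen, the difference was -0.10 ± 0.0053 with the same permutation p of 0.0015, made of -0.084 on chromosome 6 and -0.13 on chromosome 8. The planned values were -0.17 on chromosome 6 and -0.14 on chromosome 8, each with an exact permutation adjusted p of 0.0015. Over single loci in place of windows the combined difference was -0.064 and no longer passed, with an exact permutation adjusted p of 0.11. Chromosome 6 also fell short with windows of at least 1000 mean reads, at -0.045 and an exact permutation adjusted p of 0.11.

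At the 4 labelling times chromosome 8 was below WT by 0.12, 0.16, 0.13 and 0.12 in dcIDR, and chromosome 6 by 0.085, 0.089, 0.10 and 0.063. Chromosome 8 was the lowest of the 19 autosomes at each time. Chromosome 6 did not stand alone, since chromosome 12 was lower by 0.081 on average, and by 0.090 at 20 min and 0.094 at 60 min, where it lay below chromosome 6. Every other autosome lay between -0.022 and 0.024. The difference is relative to the other autosomes: scaled to spike-in reads alone, the median window of chromosomes 6 and 8 was 0.048 higher in dcIDR than in WT, while the median window of the other autosomes was 0.14 higher. That scaling moved the median of all windows by 0.13 in dcIDR and 0.30 in KO.

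Window by window, 119 of the 275 windows of chromosomes 6 and 8 were lower in dcIDR than in WT and 14 were higher, by limma with Benjamini-Hochberg adjustment over all 2403 windows and each library centred on the other autosomes. Over all windows 21.5% were lower and 17.3% higher. The median difference was -0.096 on chromosomes 6 and 8 and -0.003 on the other autosomes. On the spike-in scale without centring, 2 windows were lower and 0 were higher by limma, and 11 had an unadjusted p under 0.05. Over all 2403 windows 9 were lower, 8 were higher and 237 had an unadjusted p under 0.05. Among single loci 1002 of 35463 were lower and 77 higher, where the share over all 295574 loci was 1.54% lower and 0.425% higher, and the median locus stood at -0.11 against 0.001 elsewhere. The filter on these loci counts the KO libraries, in which the members were raised, so the tested members are partly chosen by that rise.

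Changes with labelling time were the main question, because the deposited values are ratios to 10 min. In the authors' deposited table the median ratio of the members was above 0 in every column and stayed within the range of the other autosomes. In WT the median log2 ratio of chromosomes 6 and 8 was 0.79 and 0.81 after 20 min, 1.84 and 1.84 after 40 min, and 1.89 and 1.87 after 60 min. The KO medians were 0.39 and 0.40, then 1.03 and 1.03, then 1.47 and 1.48. The dcIDR medians were 2.36 and 2.37, then 2.99 and 2.98, then 2.73 and 2.72. Over these 9 columns of the authors' deposited table, chromosome 6 differed from the median locus of the other autosomes by at most 0.027 and chromosome 8 by at most 0.035, and both lay within the spread of the other autosomes in all 9. In KO both lay above that median locus at every time. Chromosome 6 was above it by 0.018, 0.027 and 0.0098, and chromosome 8 by 0.031, 0.030 and 0.020. In WT both were above it at 20 and 40 min and below it at 60 min. In dcIDR both were below it at every time, except chromosome 6 at 40 min, which was above it by 0.00030.

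The genotypes differed far more from each other than the chromosomes did. At 60 min the other autosomes stood at 1.90 in WT, 1.46 in KO and 2.75 in dcIDR in the authors' deposited table. Locus by locus the spread was wide: in KO at 60 min the middle 50% of the member loci lay between 1.09 and 1.89, and on the other autosomes between 1.05 and 1.90.

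From the reads of the libraries, the change from 10 min to the mean of the later times was set against the other autosomes in the same way. Relative to each window's own mean, chromosome 6 changed by -0.0042 in WT, 0.018 in KO and -0.0035 in dcIDR, and chromosome 8 by 0.018, 0.030 and 0.00066. The other autosomes ranged from -0.046 to 0.049 in WT, from -0.039 to 0.039 in KO and from -0.084 to 0.071 in dcIDR. From the highest down, chromosome 6 ranked 11, 5 and 10 of 19 and chromosome 8 ranked 4, 3 and 9. In KO the 95% interval of the change held only positive values, from 0.0016 to 0.035 on chromosome 6 and from 0.0019 to 0.058 on chromosome 8. In WT and dcIDR every such interval held values of both signs. With both chromosomes together the KO change was 0.019, with an interval from 0.00024 to 0.038. By exact permutation within KO its unadjusted p was 0.036, the lowest that test can give, and its adjusted p was 0.32.

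**Figure D3:**
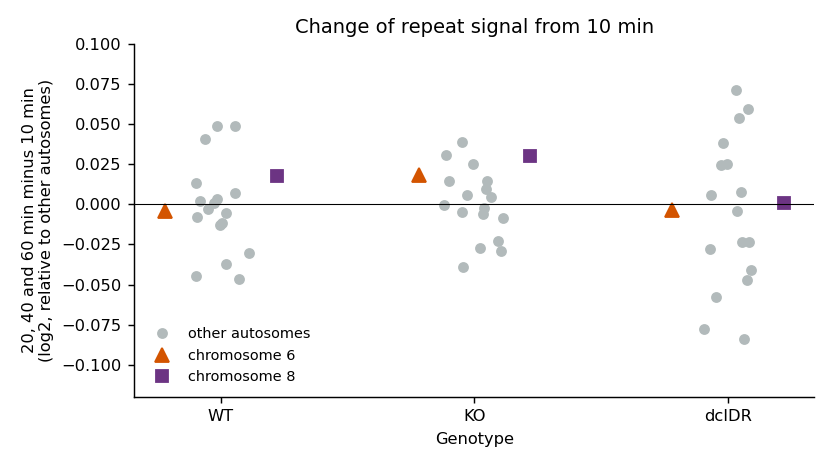
Change of the repeat signal from 10 min to the mean of 20, 40 and 60 min (log2, y axis, relative to the other autosomes) in each genotype (x axis). Grey points are the other 17 autosomes, the triangle is chromosome 6 and the square is chromosome 8. Both lie within the grey points in every genotype, between -0.0042 and 0.030.

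By the planned measure the change of chromosomes 6 and 8 together was 0.056 ± 0.027 (SE) in WT, 0.051 ± 0.027 in KO and 0.11 ± 0.027 in dcIDR. The WT value ran from 0.014 without library B at 10 min to 0.098 without library A, and the KO value from 0.0095 without library A at 10 min to 0.093 without library B. None passed the exact two-sided permutation test within its genotype, with adjusted p of 0.16, 0.46 and 0.11, where 28 arrangements allow an unadjusted p of 0.036 at the least. Over the 3 genotypes the mean change was 0.074 ± 0.016, with an exact permutation adjusted p of 0.0033. That call was lost relative to each window's own mean, where the change was 0.0068 ± 0.0050 with an exact permutation adjusted p of 0.45. It turned to -0.037 with windows of 0.25 Mb and to -0.013 over single loci.

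By the median 1 Mb window of these chromosomes, the change from 10 min was not shown to differ between genotypes. With the median level of single loci in place of windows, dcIDR differed from WT and KO. The planned measure gave a KO minus WT difference of -0.0048 ± 0.038 (SE), with a 95% interval from -0.088 to 0.079, and turned to 0.037 without library B of WT at 10 min or without library B of KO at 10 min. The planned permutation of genotype within labelling time cannot judge this difference, because the step in level between genotypes widens the values it draws, so labelling time was permuted within each genotype instead, a test chosen after the values were seen. It gave an exact permutation adjusted p of 0.98 over 9 comparisons. Relative to each window's own mean the difference was 0.021 ± 0.012, with an interval from -0.0052 to 0.048 and, by the same exact permutation, an unadjusted p of 0.087 and an adjusted p of 0.52. For dcIDR minus WT the planned value was 0.058 ± 0.038, with an interval from -0.025 to 0.14 and an exact permutation adjusted p of 0.64, and it ran from 0.016 without library A of WT at 10 min to 0.10 without library B. The own-mean value was 0.0061 ± 0.012, with an interval from -0.020 to 0.033. Over single loci the dcIDR minus WT value was -0.21 ± 0.056, with an exact permutation adjusted p of 0.027, and dcIDR minus KO was also -0.21, with an exact permutation adjusted p of 0.023. On chromosome 6 alone dcIDR minus WT was -0.21 over single loci (exact permutation adjusted p of 0.027), and on chromosome 8 alone it was -0.12 (0.15). These values compare median levels and are not the change of a typical locus. Taken locus by locus, the median dcIDR minus WT difference in change was -0.019 on chromosomes 6 and 8 and 0.0098 on the other autosomes. Among all autosomes the own-mean KO minus WT difference in change ran from -0.076 on chromosome 11 to 0.043 on chromosome 16, and chromosomes 6 and 8 lay inside that range at 0.022 and 0.012.

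Single windows did change relative to the rest. In WT 32 of the 275 windows rose after 10 min and 37 fell, by limma with adjusted p under 0.05, against 11.3% and 8.53% of all windows. Leaving out 1 WT library at 10 min moved that total of 69 to 43 or 121, the former without the library with fewer spike-in reads (B) and the latter without the other (A). In KO 24 rose and 16 fell, against 7.28% and 6.16% of all windows, and the total of 40 was 19 without library A of KO at 10 min. In dcIDR 100 rose and 103 fell, against 36.5% and 35.2%. In KO and dcIDR the shares of members called were near those over all windows. In WT the share that rose was near it, and 37 of 275 fell where 168 of the 2128 windows of the other autosomes did. On the spike-in scale, where centring on the other autosomes is left out, all 275 windows rose in each genotype, as did 2402 or 2403 of all 2403. The medians were 1.45 in WT, 1.01 in KO and 2.42 in dcIDR, and over all windows 1.45, 0.98 and 2.46.

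The median window had a KO minus WT difference in change of 0.031 on chromosomes 6 and 8 and -0.0015 on the other autosomes. Of the former 58.2% lay above 0, and of the latter 49.6%. The median locus stood at 0.023 on chromosomes 6 and 8 and -0.0071 elsewhere. These medians were not tested. Before adjustment 27 of the 275 windows had a limma p under 0.05, where 142 of all 2403 windows did. After adjustment no window of chromosomes 6 and 8 changed differently in KO and WT by limma. Over all autosomes 0.0% were higher and 0.0416% lower. The count on chromosomes 6 and 8 was 33 without library A of WT at 10 min and 1 without library A of KO at 10 min. Single loci gave the same count, 0 of 35463 by limma with 2819 under an unadjusted p of 0.05, and 0.0% over all loci in either direction. That count was 639 without library A of WT at 10 min, 278 without library A of KO at 10 min, and 1 without either dcIDR library at 10 min.

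Between dcIDR and WT the change from 10 min differed in 94 windows, 51 higher and 43 lower, against 17.3% and 13.0% of all windows. This total fell to 11 without library A of WT at 10 min and rose to 170 without library B. It was 59 without library B of WT at 20 min, 42 without library A of dcIDR at 10 min and 31 without library B. On the spike-in scale 194 windows were higher and 0 lower, where 1746 of all 2403 were higher. Among single loci 104 were higher and 66 lower, where 0.294% and 0.157% of all loci were called, and a pseudocount of 10 in place of 1 left 15 in all. Leaving out 1 library at a time moved the 170 loci by over 1.5 times in 19 of 24 cases, from 18 without library B of WT at 10 min to 1540 without library A of dcIDR at 10 min. The counts on chromosomes 6 and 8 were near the background in both units.

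The direction of these changes differed with how many reads a window held. When all autosomal windows were split into 3 groups of equal size by their mean reads over all libraries, the 96 windows of chromosomes 6 and 8 in the lowest group had a median change in dcIDR of -0.66, the 79 in the middle group 0.12, and the 100 in the highest group 0.16. The windows of the other autosomes gave -0.64, 0.090 and 0.18. Of the 43 windows lower in the dcIDR minus WT comparison of changes, 35 were in the lowest group, and of the 51 higher ones 34 were in the highest group and 0 in the lowest. In WT the lowest group changed by -0.17 and in KO by 0.061, and the highest group by 0.030 and 0.013.

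Genotype differences kept their direction at each level of reads, and KO minus WT was smaller where reads were few. The KO minus WT median was 0.17 in the lowest group, 0.38 in the middle and 0.37 in the highest, with 83 of 96, 76 of 79 and 95 of 100 windows above 0. On the other autosomes the same medians were 0.047, 0.001 and -0.026. The dcIDR minus WT medians were -0.083, -0.087 and -0.11 on chromosomes 6 and 8, with 75, 60 and 82 windows below 0, and -0.040, 0.015 and 0.011 on the other autosomes.

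The shift ran the length of both chromosomes. KO minus WT chose the set, so its values by segment are a description. In segments of 10 Mb with at least 5 windows, all 15 of chromosome 6 and all 13 of chromosome 8 had a median above 0. The lowest on chromosome 6 was 0.24 at 10 to 20 Mb and the highest 0.55 at 90 to 100 Mb. The lowest on chromosome 8 was 0.14 at 30 to 40 Mb and the highest 0.41 at 80 to 90 Mb. For dcIDR minus WT, 14 of 15 segments of chromosome 6 were below 0, from -0.17 at 40 to 50 Mb to 0.017 at 100 to 110 Mb. All 13 segments of chromosome 8 were below 0, from -0.21 at 40 to 50 Mb to -0.049 at 90 to 100 Mb.

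**Figure D4:**
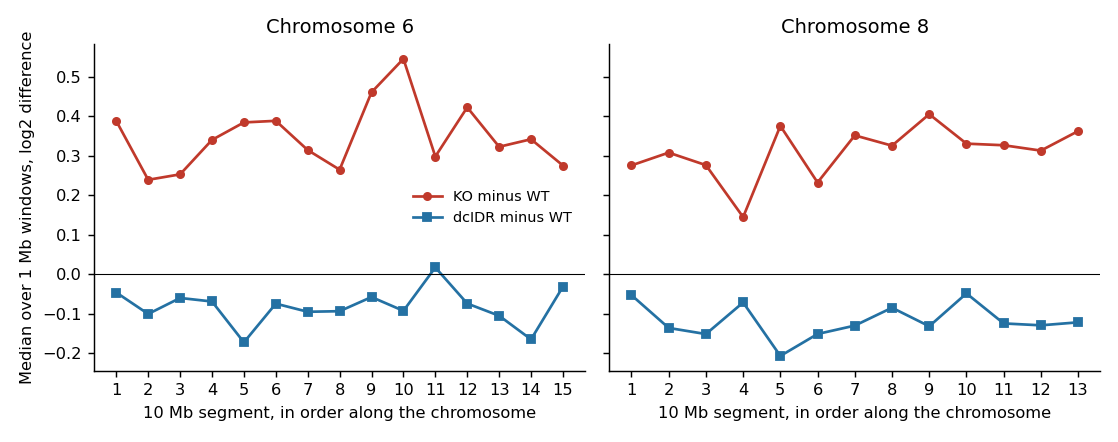
Genotype difference along chromosome 6 (left) and chromosome 8 (right), as the median over 1 Mb windows (log2, y axis) in each 10 Mb segment in order along the chromosome (x axis). Circles are KO minus WT and squares dcIDR minus WT, each averaged over the 4 labelling times. All KO values lie above 0, from 0.14 to 0.55, and all dcIDR values except 1 lie below 0.

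The change from 10 min varied along the chromosomes most in dcIDR. On chromosome 6 the lowest segment in dcIDR was -0.59 at 70 to 80 Mb and the highest 0.26 at 140 to 150 Mb, and on chromosome 8 they were -0.49 at 50 to 60 Mb and 0.13 at 80 to 90 Mb. In WT chromosome 6 ran from -0.18 at 10 to 20 Mb to 0.12 at 80 to 90 Mb, and chromosome 8 from -0.17 at 30 to 40 Mb to 0.10 at 70 to 80 Mb. The KO profile was flatter, from -0.018 at 50 to 60 Mb to 0.098 at 60 to 70 Mb on chromosome 6 and from -0.068 at 30 to 40 Mb to 0.13 at 70 to 80 Mb on chromosome 8. The KO minus WT difference in change reached 0.24 at 70 to 80 Mb of chromosome 6 and 0.13 at 50 to 60 Mb of chromosome 8.

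A few windows departed from the chromosome as a whole. The window at 141 to 142 Mb of chromosome 6, with 802 loci with reads, was 1.31 lower in KO than in WT on the log2 scale, although its chromosome was higher. It had 10523 and 3761 reads in WT at 10 min and 4183 and 1750 in KO, and 22044 and 24920 in WT at 60 min against 11054 and 7857 in KO. Its centred log2 values were 13.32 to 13.95 in the 8 WT libraries, 11.87 to 12.72 in KO and 13.51 to 14.00 in dcIDR, so KO did not overlap either. It was also the window of chromosome 6 with the largest change from 10 min in KO, 0.52 ± 0.050 (SE, limma adjusted p = 1.47e-05), with 0.29 in WT and 0.26 in dcIDR. The largest differences in the common direction on chromosome 6 were 0.76 at 93 to 94 Mb and 0.73 at 99 to 100 Mb.

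On chromosome 8 the largest KO minus WT difference was 1.03 at 49 to 50 Mb, where WT held 9.52 to 9.84 on the centred log2 scale, KO 10.60 to 10.96 and dcIDR 9.33 to 9.71. The window at 38 to 39 Mb went the other way in KO, at -0.69, and was also the window of chromosome 8 with the largest difference in dcIDR, at -1.03 ± 0.046 (limma adjusted p = 3.92e-10). Its centred values were 10.26 to 11.27 in WT, 9.66 to 10.56 in KO and 9.34 to 10.11 in dcIDR, and dcIDR lay below all WT libraries. The next by size in KO was 0.63 at 64 to 65 Mb.

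In dcIDR the lowest window of chromosome 6 lay at 44 to 45 Mb, at -1.02 ± 0.033 (limma adjusted p = 7.16e-12), where KO differed from WT by -0.071. Its centred values were 11.73 to 12.27 in WT, 11.71 to 12.21 in KO and 10.80 to 11.11 in dcIDR. The neighbour at 43 to 44 Mb was at -0.50, with 0.51 in KO, and 61 to 62 Mb was at -0.39. On chromosome 8 the next were 77 to 78 Mb at -0.49 and 103 to 104 Mb at -0.47.

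Some of the largest rises after 10 min lay in windows whose change was above 0 in all 3 genotypes. At 54 to 55 Mb of chromosome 8 the change was 0.61 ± 0.067 in WT (limma adjusted p = 5.83e-05), 0.56 in KO and 0.96 in dcIDR. On chromosome 6, 41 to 42 Mb changed by 0.51 in WT, 0.31 in KO and 0.41 in dcIDR. At 72 to 73 Mb of chromosome 8 the values were 0.48, 0.37 and 0.70. Other rises in KO were not shared by dcIDR: at 38 to 39 Mb of chromosome 8 the change was 0.50 in KO and -0.058 in dcIDR, and at 107 to 108 Mb of chromosome 6 it was 0.48 and -0.033. The largest changes in dcIDR were falls in windows with few reads, led by -1.29 ± 0.13 at 90 to 91 Mb of chromosome 8 (limma adjusted p = 2.19e-06) with a mean of 222.2 reads and -1.18 at 138 to 139 Mb of chromosome 6 with a mean of 297.4. The former held 137 and 141 reads in dcIDR at 10 min and 185 to 282 at the later times, while the median window rose more. The 3 largest dcIDR minus WT differences in change were -0.84, -0.76 and -0.73 on chromosome 6, at 138 to 139, 9 to 10 and 102 to 103 Mb. On chromosome 8 they were -0.94, -0.94 and -0.93, at 82 to 83, 114 to 115 and 17 to 18 Mb.

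All kinds of repeat on these chromosomes shared the genotype differences. Each class and family was compared with the same kind on the other autosomes, in windows with a mean of at least 20 reads. KO minus WT was above 0 for all 6 classes, from 0.28 for LINE to 0.42 for DNA transposons, with SINE at 0.40, LTR at 0.38, simple repeats at 0.38 and low-complexity sequence at 0.39. Of the 12 families, L1 was lowest at 0.28 and ERV1 highest at 0.44. B2, a SINE family transcribed in part by RNA polymerase III, stood at 0.40, B4 at 0.41 and ERVK, the family of the IAP and MusD elements, at 0.38. Both KO libraries lay above both WT libraries at all 4 times for each class and family. KO minus WT chose the set, so this order was largely fixed by that choice and is a description.

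For dcIDR minus WT all 6 classes and all 12 families were below 0. The classes ran from -0.13 for LTR to -0.094 for LINE, and the families from -0.14 for ERVL-MaLR to -0.080 for L2. For 10 of the 12 families both dcIDR libraries lay below both WT libraries at all 4 times, and for L2 and TcMar-Tigger at 3 of 4. The kinds of repeat share windows and transcripts, so they are not independent of each other.

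**Figure D5:**
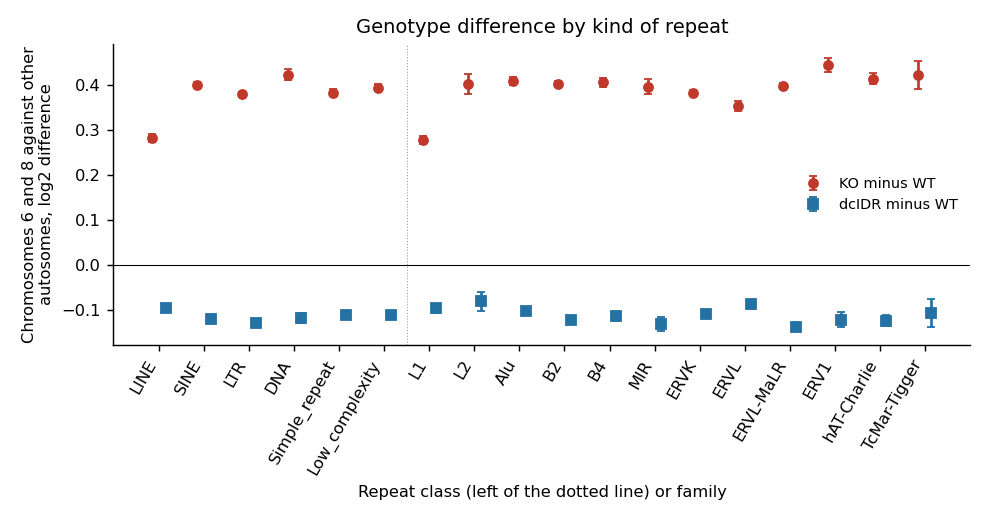
Genotype difference of repeats on chromosomes 6 and 8 relative to the same kind of repeat on the other autosomes (log2, y axis) for 6 classes and 12 families (x axis). Circles are KO minus WT, squares dcIDR minus WT, and error bars are SEs from the spread within groups. KO values run from 0.28 to 0.44 and dcIDR values from -0.14 to -0.080.

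Changes from 10 min by kind were small beside these steps. The 6 classes changed by -0.017 to 0.016 in WT, -0.020 to 0.044 in KO and -0.035 to 0.047 in dcIDR, with 1, 5 and 3 of the 6 above 0. Among families the values outside that range in dcIDR were TcMar-Tigger at -0.22 ± 0.051 (SE) and L2 at -0.13 ± 0.035, which have 1045 and 686 loci with reads on these chromosomes, beside ERVL-MaLR at 0.051, ERV1 at 0.052 and Alu at -0.041. Of the 12 families, 7 were above 0 in WT, 11 in KO and 5 in dcIDR. The KO minus WT difference in change ran from -0.0094 for low-complexity sequence to 0.050 ± 0.016 for SINE among classes. It was above 0 for 5 of 6 classes and 9 of 12 families, and was not tested by kind.

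The make-up of the loci was close to that on the other autosomes. LINEs were 16.7% of the loci on chromosomes 6 and 8 and 16.4% elsewhere, SINEs 25.3 and 26.3%, LTR elements 20.0 and 20.2%, and simple repeats 27.9 and 27.0%. In reads, LINEs held 20.9 and 20.8%, SINEs 37.2 and 36.4%, and LTR elements 22.3 and 21.6%. Loci that passed the filter had a median length of 169 bases and a median level of 23.2, against 174 bases and 21.8 on the other autosomes.

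Single loci varied widely around the chromosomes. KO minus WT, the contrast that chose the set, was above 0 for 30955 of 35463 loci, with a median of 0.40 and the middle 50% between 0.19 and 0.61. In windows it was above 0 for 254 of 275. These are descriptions of the values used by the choice.

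Positions of loci are given as the deposited names write them, on GRCm39. The locus with the highest level on chromosome 6 was a short ERVK element at chr6:51441068-51441184, with levels of 1035 to 4420 in WT, 2019 to 5713 in KO and 530.1 to 3913 in dcIDR. These ranges pool the labelling times. At 10, 20 and 40 min both KO libraries lay above both WT libraries, while dcIDR lay below WT at 10 min and above it at 20 min. At 40 min the dcIDR levels of 3491 and 3820 lay between the WT levels of 2776 and 4173. The KO minus WT difference of this locus was 0.39 and its dcIDR minus WT difference -0.26, with limma adjusted p of 0.32 for the latter. The L1 with the highest level there was one of 6445 bases at chr6:141523763-141530208, inside the window that was low in KO. It had levels of 765.4 and 1105 in WT, 415.6 and 547.8 in KO and 669.2 and 793.9 in dcIDR at 10 min, and 4405 and 5832, 2315 and 2464, and 4146 and 7279 at 60 min. KO was lower by 1.40 while dcIDR differed by 0.19. Another ERVK element, at chr6:64632805-64637260, stood at -0.15 in KO and 0.40 in dcIDR.

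On chromosome 8 the 3 highest loci were L1 elements. The one at chr8:20558466-20564468 had levels of 588.3 and 890.2 in WT, 1754 and 2070 in KO and 363.3 and 369.0 in dcIDR at 10 min. The genotypes were apart at that time on the spike-in scale, but at 20 min dcIDR lay above WT. The levels then were 2266.6 and 2995.1 in dcIDR and 1761.7 and 1532.5 in WT. Averaged over times this locus was 0.52 higher in KO and 0.19 lower in dcIDR than in WT, with a limma adjusted p of 0.50 for dcIDR. Its change from 10 min was 0.55 in WT, 0.23 in KO and 0.73 in dcIDR. The L1 at chr8:43752077-43753402 stood at 0.37 in KO and -0.26 in dcIDR. The L1 at chr8:69745644-69749488 stood at -0.048 in KO and at -0.59 in dcIDR, with a limma adjusted p of 0.021 for dcIDR. For these 6 loci the split of reads between the 2 WT libraries at 60 min was not unique and was set by the usual ratio of that pair, which keeps their mean and gives no spread.

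No locus passed for the KO minus WT difference in change. The 3 largest dcIDR minus WT differences in change on chromosome 6 were all negative: -3.73 ± 0.53 (SE, limma adjusted p = 0.016) for a SINE of the ID family at chr6:134910405-134910469, -3.34 for an L1 at chr6:30088154-30088396 and -3.18 for a simple repeat at chr6:88334898-88334943. These are loci of few reads. The ID element had 9 and 4 reads in dcIDR at 10 min and 2 to 10 later, against 5 and 0 in WT at 10 min and 4 to 17 later. On chromosome 8 a simple repeat at chr8:71084534-71084578 stood at -3.87, while an ERVK element at chr8:125572606-125572766 stood at 3.21 ± 0.49 (limma adjusted p = 0.016). The ERVK element had 0 reads in both dcIDR libraries at 10 min and 18 to 43 later, and 28 and 19 in WT at 10 min and 16 to 81 later. An L1-dependent retroposon at chr8:73889032-73889545 stood at 3.17, with 1 and 0 reads in dcIDR at 10 min. Fitted values that rest on 0 reads depend on the pseudocount of 1 and are no measure of size.

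Reads over genes of the same chromosomes, which share transcripts with the repeats, gave like differences in level between genotypes. For 782 genes of chromosome 6 the KO minus WT median was 0.43 ± 0.0054 (SE) relative to 12871 genes of the other autosomes, and for 780 genes of chromosome 8 it was 0.36 ± 0.0057. By time chromosome 6 gave 0.42, 0.43, 0.43 and 0.42, and chromosome 8 gave 0.36, 0.33, 0.36 and 0.39. In dcIDR the medians were -0.089 and -0.14, each with an exact permutation adjusted p of 0.0015. The change from 10 min over the 3 genotypes was 0.0048 on chromosome 6, 0.031 ± 0.0053 on chromosome 8 and 0.017 ± 0.0038 together. The exact permutation adjusted p was 0.61 on chromosome 6, 0.00041 on chromosome 8 and 0.0029 together. For repeats the own-mean value together was 0.0068 and did not pass (exact permutation adjusted p of 0.45). The KO minus WT difference in the change over genes was 0.0062 with both chromosomes together, with an interval from -0.014 to 0.026. On chromosome 6 alone dcIDR minus WT was 0.041, with an interval from 0.014 to 0.068, and dcIDR minus KO was 0.034, with an interval from 0.0073 to 0.061. With labelling time permuted within genotypes none of the 9 comparisons over genes passed, the lowest exact permutation p being 0.079 (adjusted 0.71) for dcIDR minus WT on chromosome 6.

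Named genes spread around these medians. For Nanog, Ezh2 and Alkbh5 the split of reads within at least 1 pair of libraries was not unique. Ezh2, the methyltransferase of the Polycomb complex PRC2, on chromosome 6, was 0.51 ± 0.024 (SE) higher in KO than in WT and differed by -0.070 in dcIDR. Nanog, a pluripotency factor on chromosome 6, differed by 0.10 ± 0.035 in KO and -0.049 in dcIDR. Dppa3, a germline and naive pluripotency gene on the same chromosome, stood at 0.74 ± 0.22 in KO and 1.03 in dcIDR, at levels of 14.0 to 248.5. On chromosome 8, Fto, another RNA demethylase, stood at 0.50 ± 0.053 in KO and -0.038 in dcIDR. Tubb3, a neuronal tubulin on chromosome 8, stood at 0.88 ± 0.066 in KO and -0.86 in dcIDR. It is 1 of 4 listed neural markers, all with reads in every library, whose sum was 157.2 to 188.5 per 1000000 gene reads in WT, 270.4 to 373.2 in KO and 107.4 to 146.3 in dcIDR, and the part of such cells in these values was not tested.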

How the data were processed

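The authors deposited log2 ratios of the 3 later labelling times to 10 min within a genotype, with replicates combined and scaled to spike-in reads, per the file headers and values. The submitters' processing notes list HISAT2, SAMtools, Picard and GRCm39. How reads were counted, on which repeat annotation, with or without strand, and how multi-mapping reads were treated is not given in the sources used here, so near-identical repeat copies and overlapping genes are uncertain. The column prefix ki was taken as dcIDR by elimination.

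Each deposited value equals a ratio of spike-in-scaled sums of whole reads (constant 40000, plus 1), and solving it returned the reads of all 24 libraries for 100% of repeat lines with a value and over 99.99% of gene lines. Where the split within a group was not unique (164 repeat lines in WT, 8 in KO, 8 in dcIDR), the usual ratio of the pair was used. Among gene lines this held for 2832 in WT, 175 in KO and 269 in dcIDR. Such a pair keeps its mean and gives no spread of its own, so SEs and tests over genes may understate the spread. Library A has more spike-in reads than B; replicate numbers are not known. Both recovery and the window fit were tested on simulated data.

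Reads were summed in 1 Mb windows with a mean of at least 100 reads (2403, 275 of them on chromosomes 6 and 8) and tested as log2(reads + 1), relative to the other autosomes. Low loci are understated on this scale. Exact permutation tests and limma 3.58.1 (R 4.3.3), 12 groups, Benjamini-Hochberg threshold 0.05, were used. SEs of chromosomes, kinds of repeat and genes come from the spread within groups on 12 degrees of freedom. SEs of single windows and loci come from limma, which draws the spread within groups toward a value shared by all windows or loci. The permutation of labelling time within genotypes was added after the values were seen. Genes were placed on chromosomes by Ensembl ID in GENCODE M21 (93.0% of lines matched) and kept from a mean level of 50 up.

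The members and lists were chosen with earlier results of these data known. Named were the highest and lowest 10 Mb segments, the 3 windows of largest change per contrast, the 3 loci of highest level and of largest difference in change, the listed classes and families, and 5 genes. Levels are scaled to 11714 spike-in reads. Endoderm and trophoblast markers summed to at most 9.62 and 13.6 per 1000000 gene reads. No locus sequence is shown, since a genome of this build was not used here.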

Additional observations from a re-analysis of the deposited data

Results flagged for a closer look

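The change from 10 min differed between dcIDR and WT in 94 of the 275 windows of chromosomes 6 and 8, by limma's test of the difference itself, 51 higher and 43 lower. The count was 11 without library A of WT at 10 min and 170 without library B. Among single loci of these chromosomes the same test called 170, 104 higher and 66 lower, and this was 18 without library B of WT at 10 min and 1540 without library A of dcIDR at 10 min. Both dcIDR libraries at 10 min had the fewest repeat reads of all groups, and their part in these counts was not tested beyond leaving each out.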

How the results depend on the processing

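No paired analysis was possible because the recovered libraries carry no replicate numbers. The lower level of chromosomes 6 and 8 in dcIDR, relative to the other autosomes, kept its direction in the 9 settings tried and lost its call over single loci, at -0.0574 on chromosome 6, -0.0972 on chromosome 8 and -0.0641 together, with exact permutation adjusted p of 0.111, 0.0926 and 0.111, and on chromosome 6 with windows of at least 1000 reads, at -0.0446 (exact permutation adjusted p of 0.108). Leaving out 1 library gave -0.183 to -0.162 on chromosome 6, -0.160 to -0.117 on chromosome 8 and -0.143 to -0.117 together.

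The change from 10 min turned with windows of 0.25 Mb to -0.0287 in WT, -0.0986 in dcIDR and -0.0367 over the genotypes, over single loci to -0.155 in dcIDR and -0.0130 over the genotypes, and relative to each window's own mean to -0.00226 in WT. Over the genotypes it lost its call at 0.0370 with LINE, SINE, LTR and DNA classes alone and at 0.00684 relative to own means. The KO minus WT difference in change turned to 0.0458 (0.25 Mb), 0.0200 (summed reads), 0.0232 (at least 1000 reads), 0.000127 (other autosomes without 4 and 11) and 0.0212 (own means), and ran from -0.0470 to 0.0373 when 1 library was left out. The dcIDR minus WT difference turned to -0.0699 (0.25 Mb), -0.215 (single loci), -0.00190 (at least 1000 reads) and -0.0215 (the 4 classes). The cause was not tested.

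Counts of windows moved, from 69 in WT, 40 in KO and 203 in dcIDR, to 275 in WT and 275 in KO on the spike-in scale, and to 146, 87 and 604 with windows of 0.25 Mb, where more windows were tested. Those whose change differed between dcIDR and WT went to 194 on the spike-in scale and 212 with 0.25 Mb, and those lower or higher in dcIDR from 133 to 2 and 350. Loci whose change differed between dcIDR and WT numbered 336 from a mean level of 50 up, 15 with a pseudocount of 10 and 7319 on the spike-in scale. Leaving out 1 library gave 43 to 121 windows in WT, 19 to 49 in KO, 0 to 33 for KO minus WT changes and 11 to 170 for dcIDR minus WT changes, and 0 to 639 and 18 to 1540 loci. A group left with 1 library was taken to vary like the others. The 2 libraries per group and the shallow dcIDR pair at 10 min limit all changes from 10 min.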
